A study of Mus musculus with 74 samples.

Results

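The binding sites of Zfp458, Zfp709, Zfp933 and Zfp935 were examined as called peaks of 4 ChIP-seq experiments, 1 for each protein. ChIP-seq sequences the DNA fragments that are immunoprecipitated with a tagged protein. The members are all rows of the deposited peak table that carry one of these names, 1857 of the 53011 peaks of 67 labelled KRAB-ZFPs (KRAB zinc finger proteins). Zfp458 had 203 peaks, Zfp709 had 1223, Zfp933 had 216 and Zfp935 had 215. All 4 proteins were overexpressed with a C-terminal triple HA tag (C-3XHA) in F9 EC cells, a mouse embryonal carcinoma line, and immunoprecipitated with the HA antibody ab9110. The study's methods describe stable expression from transposon or lentiviral vectors and a pool of resistant clones, so the level of each protein need not be that of its own gene. The reads were aligned with Bowtie, and a peak had to be called over both an F9 input and an HA control ChIP. The peak settings in the labels were p under 1e-05 and enrichment over 10 for Zfp458, Zfp709 and Zfp933, and p under 1e-10 and enrichment over 10 for Zfp935. The labels describe 74 samples, namely 68 KRAB-ZFP ChIPs, each for another protein, and 6 control or input samples, so differences between KRAB-ZFPs have no replicate check, no test was made, and intervals cover counting error only.

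In a KRAB-ZFP each zinc finger contacts a few bases, so the order of its fingers sets the sequence it recognises. Silencing depends on KAP1 (also called Trim28), a cofactor held by the KRAB domain, and ends in methylated H3K9 at the bound site. Many KRAB-ZFPs are known to bind copies of transposable elements, whose similar sequences offer the same site at many places in the genome. The label of a sample is the only evidence here for which protein was precipitated, since a peak list does not measure the tagged gene.

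One stretch of sequence recurred in the Zfp458 peaks. Of the 203 windows of 200 bp around the Zfp458 summits, 47 joined a single sequence family when windows that aligned over at least 100 bp at 75% identity or more were linked. The consensus of these 47 windows and their flanks had 381 bp. Its positions 209 to 238 were those where genomic copies with a Zfp458 peak kept the consensus base most often relative to copies without one. That stretch is shown in capitals below with 15 bases on each side, followed by the same stretch at 6 family peaks of high fold. These peaks were among those used to choose the positions, so a close match in them follows in part from the choice. Peaks of like fold at Gm16889 (20.0-fold, 2 mismatches) and Klhl24 (18.7-fold, 0 mismatches) were among those not printed. The copies are read 5′ to 3′ on the strand of the consensus, from mm9.
Consensus of the Zfp458 family: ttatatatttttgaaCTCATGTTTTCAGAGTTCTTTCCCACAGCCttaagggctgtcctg
Dgke, chr11:88906422-88906451, minus strand: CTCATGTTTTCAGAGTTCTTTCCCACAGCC
Jam2, chr16:84779926-84779955, plus strand: CTCATGTTTTCAGAGTCCTTTCCCACAGCC
Tmem44, chr16:30555104-30555133, minus strand: CTCGTGTTTTCAGCGTTCTTTCCCACAGCC
U7, chr4:84476664-84476693, plus strand: GTCATGTTTTCAGAGTTCTTTCCCACAGTC
Mrpl40, chr16:18868897-18868926, minus strand: CCCATGTTTTCAGAGTTCTTTCCCACAGCC
Fam134b, chr15:25745401-25745430, plus strand: CTCACGTTTTCAGAGTTCTTTCCCACAGCC

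The Dgke copy matched all 30 bases of the stretch, the Jam2, Mrpl40 and Fam134b copies had 1 mismatch each, and the Tmem44 and U7 copies had 2 each. The Dgke intron peak had 53.4-fold enrichment over the local background with 204 tags (sequenced reads in the peak), the highest fold of all Zfp458 peaks. The Jam2 intron peak followed with 29.2-fold and 151 tags. The intergenic peak 4310 bp from a transcript start of Tmem44 had 26.6-fold enrichment and 103 tags. The peak 450 bp from the start of a U7 small nuclear RNA gene had 26.5-fold enrichment and 227 tags. The peaks near Mrpl40 and Fam134b had 18.7-fold and 17.4-fold enrichment, with 50 and 74 tags.

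The stretch was checked on copies that had no part in choosing it. A consensus and a 30 bp stretch were taken from family peaks and copies on odd-numbered chromosomes alone, and the match was measured on copies of the even-numbered chromosomes and X, and then the other way round. The first choice gave positions 215 to 244 of a consensus made from 18 family peaks, and the second gave positions 222 to 251 of one made from 29. Both stretches hold the same 21 bases, printed here in capitals in the order of the family consensus.
Stretch chosen on odd-numbered chromosomes: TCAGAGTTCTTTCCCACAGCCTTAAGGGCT
Stretch chosen on even-numbered chromosomes and X: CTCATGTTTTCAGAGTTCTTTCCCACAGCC
Longest run that both share: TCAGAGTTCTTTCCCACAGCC

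In the copies left aside, the first stretch kept the consensus base at 93.9% of positions in 31 copies with a Zfp458 peak and at 83.4% in 1187 copies without one. Over the rest of the consensus the same copies kept it at 81.8% and 79.6%. The second stretch gave 94.4% in 19 copies with a peak and 83.2% in 1077 without, against 82.5% and 80.8% over the rest. The difference between the copies was therefore 10 points or more inside either stretch and less than 3 points outside it. With the first stretch, 30 of 30 copies with a peak whose stretch was aligned had at most 3 mismatches (95% Wilson interval 88.6% to 100%), against 356 of 1015 copies without a peak (35.1%, interval 32.2% to 38.1%). The second stretch gave 17 of 19 copies (89.5%, interval 68.6% to 97.1%) against 343 of 926 (37.0%, interval 34.0% to 40.2%). Read from the other side, most well matched copies had no called peak. Of the 386 copies with at most 3 mismatches to the first stretch, 7.77% had a Zfp458 peak, and of the 659 copies with more, 0 had one. For the second stretch the share was 4.72% of 360 copies, and 2 of the 585 copies with more mismatches had a peak.

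**Figure D1:**
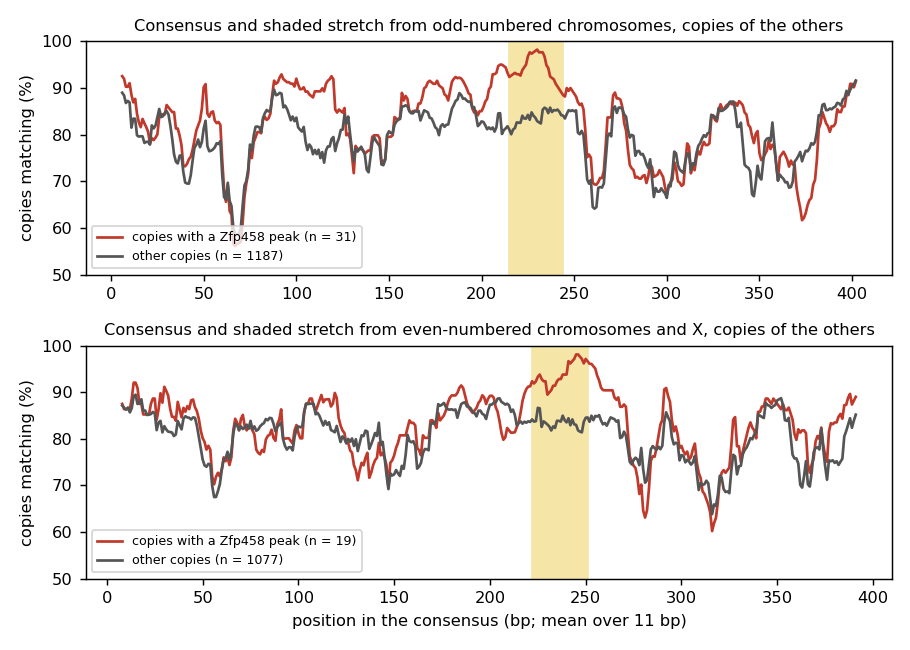
Percent of genomic copies that carry the consensus base (y axis) at each position of the Zfp458 family consensus in bp (x axis), as a running mean over 11 bp, for copies with a Zfp458 peak (red) and other copies (grey). In each panel the consensus and the shaded 30 bp stretch came from one set of chromosomes and the curves from the copies of the other set. The red curve lies above the grey one throughout the shaded stretch, with means of 93.9% against 83.4% (upper panel) and 94.4% against 83.2% (lower panel), and the curves run close together over most of the rest.

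A search of mm9 with the consensus found 2288 copies of at least 100 bp, of which 49 carried a Zfp458 peak (2.14%, interval 1.62% to 2.82%). The 49 copies were a little closer to the consensus (median identity 84.4%) than the other copies (81.1%) and a little longer in the alignment (345 bp against 306 bp). Of the 49 peaks on these copies, 47 were the family peaks that made the consensus. A closer and longer match in them therefore follows in part from how it was made. When all copies were sorted by their match to positions 209 to 238, which were chosen on these same copies, 29 of 219 copies with 0 or 1 mismatch had a peak (13.2%, interval 9.38% to 18.4%). The number was 18 of 522 with 2 or 3 mismatches (3.45%) and 2 of 507 with 4 or 5 (0.394%). No copy with 6 or more mismatches had one: the counts were 0 of 368, 0 of 282 and 0 of 103 in the next 3 classes. The 24 bp words of a family peak occurred at a median of 1 place in mm9, so most reads of these peaks could be placed at a single position.

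**Figure D2:**
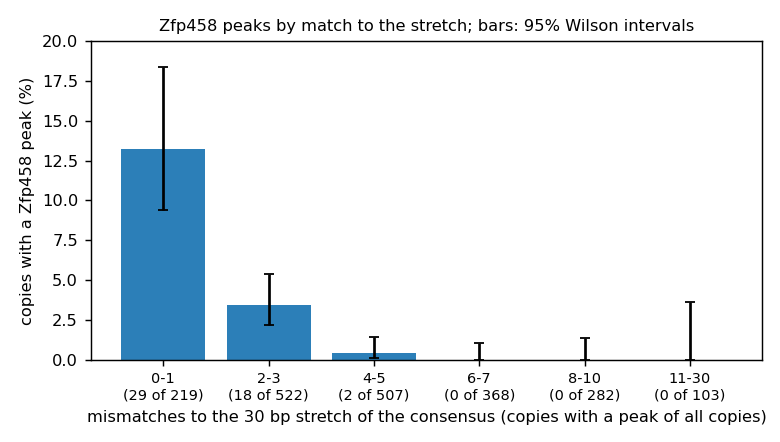
Percent of the genomic copies of the Zfp458 family that carry a Zfp458 peak (y axis), by the number of mismatches to the 30 bp stretch of the consensus (x axis, with copies with a peak of all copies in brackets). Bars are shares and whiskers 95% Wilson intervals for counting error. The share was 13.2% at 0 or 1 mismatch, 3.45% at 2 or 3, 0.394% at 4 or 5, and 0 in the 3 classes above.

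The stretch hardly occurred outside the genomic copies of the family. With up to 3 mismatches on either strand, it matched mm9 at 679 places inside the copies, of which 44 had a Zfp458 summit within 150 bp, and at 7 places elsewhere, of which 0 had one. Among the Zfp458 peaks outside the family, the best match in the 200 bp window had at least 11 mismatches in the 73 peaks called for Zfp458 alone. It had at least 12 in the 83 shared peaks. The family was made by similarity of these same windows, so the lack of a match outside it follows in part from that choice. A window can also miss the stretch of its copy. Of the 49 Zfp458 peaks on copies, 47 were in the family, though no copy with 6 or more mismatches had a peak. In the family itself, 35 of 47 windows held the stretch with up to 6 mismatches. One window among the 12480 peaks of the other 29 KRAB-ZFPs of the same setup held it, the Zfp457 peak at the Dgke intron. The summits were not centred on the stretch: over 46 copies with a peak, those on chromosome 18 left out, the distance from summit to its centre had a median of 55.5 bp, with 22 within 50 bp and 36 within 100 bp. Peaks of other KRAB-ZFPs lay on 15 of the 2288 copies, and no other KRAB-ZFP had more than 2.

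Of the 203 Zfp458 peaks, 63 fell into 4 sequence families (31.0%, interval 25.1% to 37.7%), of which the one above is the largest. Its 47 peaks had a median fold of 14.8 (quartiles 12.1 and 16.2), a median of 53 tags and a median called width of 405 bp. The 73 peaks called for Zfp458 alone and outside this largest family had a median fold of 11.8 with 30 tags and 257 bp, and the 83 shared peaks outside it had 12.3-fold with 30 tags and 265 bp. Of the 20 peaks with the highest fold among the 118 called for Zfp458 alone, 14 belonged to the family, and of the other 98, 31 did. The second family had 12 peaks, of which 3 were called for Zfp458 alone and 11 held a run of at least 30 purines or pyrimidines. Its words occurred a median of 16 times in mm9, its fold ran from 11.5 to 32.0, and it had 14 to 38 tags. The largest family lay on 18 chromosomes, with 31 intergenic peaks and 15 in introns, and 45 of its 47 peaks were called for Zfp458 alone. One family peak lay in the untranslated region of Zfp599, itself a zinc finger gene (chr9:22053432-22053631, 16.7-fold, 80 tags). Others with many tags lay near Swap70 (15-fold, 140 tags) and near Adam5 (16.0-fold, 107 tags).

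Over all 203 peaks of Zfp458 the fold ran from 10 to 53.4 with a median of 12.3, and the tags from 14 to 239 with a median of 32. The deposited false discovery rate, an estimate obtained by exchanging ChIP and control, had a median of 20.7% and was above 10% in all 203 peaks. It was 100% at the Dgke peak, 50% at the U7 peak, 28.6% at the Tmem44 peak and 20% at the Jam2 peak. The peaks of highest fold were thus not those with the lowest rate. Only 12 peaks (5.91%) reached 20-fold enrichment. Besides the family peaks above, the loci called for Zfp458 alone with the highest fold were a Dnaic1 intron (chr4:41535493-41535692, 25.4-fold, 26 tags), a coding exon of Pitpnm2 (chr5:124581210-124581409, 21.4-fold, 43 tags) and a Skint5 intron (chr4:113517205-113517404, 20.3-fold, 21 tags). These 3 had far fewer tags than the family peaks of like fold. The Dnaic1 window is made of words that occur a median of 11 times in mm9, while the other 2 windows are single-copy.

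The enrichment of all 4 ChIPs lay near the lower limit of calling. The study loosened the setting where the strict one gave few peaks, so each setting depends on the outcome of its own sample. Among the 30 KRAB-ZFPs assayed in the same setup (F9 EC cells, HA antibody, Bowtie, input and HA control), 19 were called with p under 1e-10 and enrichment over 20, 4 with 1e-10 and 10, and 7 with 1e-05 and 10. The median fold of these 30 ran from 11.9 to 55.4. In that order, highest first, Zfp935 took place 25 with 13.3-fold, Zfp458 place 26 with 12.3-fold, Zfp933 place 28 with 12.1-fold and Zfp709 place 29 with 11.9-fold. The threshold sets much of this order, since a list called over 20-fold cannot have a median under 20. Within the 11 KRAB-ZFPs called over 10-fold the 4 took places 6, 7, 9 and 10. The highest peak told them apart more clearly: among these 11, Zfp458 took place 3 by its highest fold, Zfp935 place 6 with 37.7-fold, Zfp709 place 7 with 32.7-fold and Zfp933 place 11 with 18.1-fold.

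**Figure D3:**
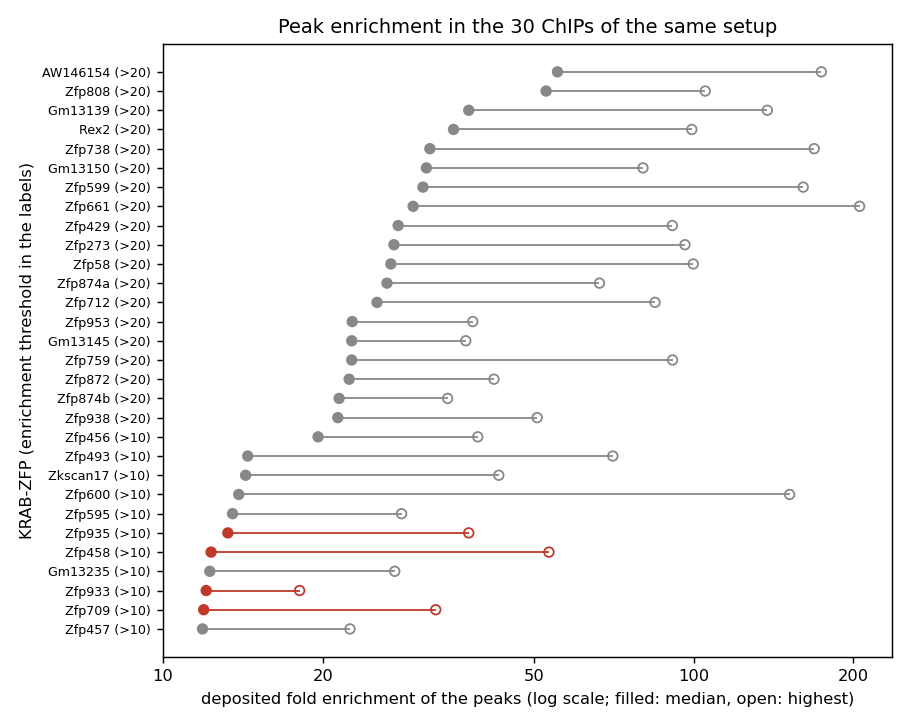
Deposited fold enrichment (x axis, log scale) of the peaks of each of the 30 KRAB-ZFPs in the same setup (y axis, with the enrichment threshold of the labels in brackets). Filled points are medians and open points the highest peak, and the 4 ChIPs described are in red. Their medians sit between 11.9 and 13.3, and the highest fold of Zfp933, 18.1, is the lowest of the 30.

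Loci called in several KRAB-ZFPs were separated from loci called in 1 alone. Windows of 200 bp around the summits were joined where they overlapped by at least 25%, over all 67 KRAB-ZFPs, and a locus counted as called alone if no other KRAB-ZFP had a peak in it. Zfp458 was alone at 118 of 203 loci (58.1%, interval 51.3% to 64.7%), Zfp709 at 848 of 1223 (69.3%, interval 66.7% to 71.9%), Zfp933 at 114 of 216 (52.8%, interval 46.1% to 59.3%) and Zfp935 at 121 of 215 (56.3%, interval 49.6% to 62.7%). Over all 12683 peaks of the setup this share was 70.9%, so only the interval of Zfp709 reached it. The median of the 30 KRAB-ZFPs was 68.9%, and Zfp458, Zfp709, Zfp933 and Zfp935 took places 20, 15, 22 and 21 from the highest. Among the 11 called over 10-fold they took places 8, 4, 10 and 9. Within the setup, the share of loci also called in another KRAB-ZFP was 40.4% for Zfp458, 27.6% for Zfp709, 45.8% for Zfp933 and 36.7% for Zfp935, against 24.3% over all peaks of the setup. Loci shared with KRAB-ZFPs of other setups only were few, at 3, 38, 3 and 15.

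**Figure D4:**
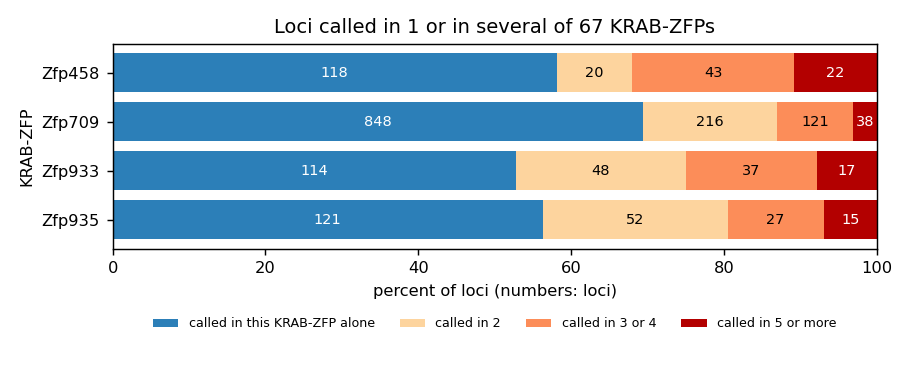
Percent of the loci of each of the 4 KRAB-ZFPs (x axis) that were called in that KRAB-ZFP alone, in 2, in 3 or 4, or in 5 or more of the 67 KRAB-ZFPs, with the number of loci written in each bar. The part called alone is longest for Zfp709, with 848 loci, and the part called in 5 or more is longest for Zfp458, with 22.

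Zfp458 had the largest share of widely called loci. It shared 20 loci with 1 other KRAB-ZFP, 43 loci were called in 3 or 4 and 22 in 5 or more (10.8%, interval 7.27% to 15.9%). For Zfp709 the part called in 5 or more was 3.11% (38 loci, interval 2.27% to 4.24%), for Zfp933 7.87% (17 loci) and for Zfp935 6.98% (15 loci). The interval of Zfp458 lay above that of Zfp709 and overlapped those of the other two. The partners were largely the same for all 4. Gm13235 came first, with 50 loci of Zfp458, 134 of Zfp709, 43 of Zfp933 and 27 of Zfp935, and Zfp457 followed with 34, 116, 32 and 24, level with Zfp709 in the case of Zfp933. Gm13235 and Zfp457 had the longest lists of the setup with 1790 and 1812 loci. As a share of its own list, Zfp457 gave 1.88% to Zfp458 and 6.40% to Zfp709, and Gm13235 gave 2.79% and 7.49%. By that share other partners came first, with 7.45% of the 188 Zfp872 loci shared with Zfp458, and 17.0% of the 135 Zfp953 and 16.9% of the 136 Zfp595 loci shared with Zfp709.

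Among the 4, most loci were separate. Of their 1762 merged loci, 1678 were called in 1 of the 4, 74 in 2, 9 in 3 and 1 in all 4. Zfp709 and Zfp933 shared 32 loci, which were 2.62% of the Zfp709 loci and 14.8% of the Zfp933 loci. Zfp458 and Zfp709 shared 26 (12.8% and 2.13%), and Zfp709 and Zfp935 shared 21 (1.72% and 9.77%). The 3 pairs without Zfp709 shared 13, 10 and 5 loci, for Zfp933 with Zfp935, Zfp458 with Zfp933 and Zfp458 with Zfp935.

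The locus called in all 4 lay between genes on chromosome 13 and was called in 9 KRAB-ZFPs in all. The fold there was 12.8 for Zfp458 (38 tags), 11.4 for Zfp709 (30 tags), 13.6 for Zfp933 (33 tags) and 13.9 for Zfp935 (45 tags). The 5 other KRAB-ZFPs at this locus ran from 10-fold for Zfp457 to 22.9-fold for Gm13145, so none of the 4 stood out. The Lrrc8d intron was called in 8 KRAB-ZFPs, with 17.4-fold enrichment for Zfp709, 12.7-fold for Zfp933 and 15.9-fold for Zfp935. The Lrp1 intron was called in 9, with 10.7-fold for Zfp458. The locus called in the most KRAB-ZFPs, 11, lay near H2afb1, and its Zfp709 peak of 10.5-fold and 40 tags was among the lowest there. The highest was Zfp810 with 49.8-fold.

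A run of at least 30 purines or pyrimidines on either strand was counted in every window. It was found in 3 of the 118 loci called for Zfp458 alone (2.54%, interval 0.868% to 7.21%) and in 14 of its 85 shared loci (16.5%, interval 10.1% to 25.8%). All 14 were called in 3 or more KRAB-ZFPs, where they made up 21.5% of 65 loci. For Zfp709 the shares were 4.25% of loci called alone and 8% of shared loci, with intervals of 3.08% to 5.82% and 5.66% to 11.2%. The intervals of loci called alone and shared loci overlapped slightly for Zfp709, and also overlapped for Zfp933 (5.26% and 5.88%) and Zfp935 (5.79% and 5.32%). Where 3 or more KRAB-ZFPs shared the locus, the share with a run was 10.1% for Zfp709, 9.26% for Zfp933 (5 of 54) and 9.52% for Zfp935 (4 of 42). The other KRAB-ZFPs of the setup had 3.26% of 7791 peaks called alone and 7.35% of 3035 shared peaks, and mm9 as a whole had 2.62% of its windows of 200 bp.

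Enrichment did not separate shared loci from those called alone in the same way in each ChIP. The median fold of shared and alone loci was 12.3 and 12.3 for Zfp458, 12.1 and 12.1 for Zfp933, 12.8 and 11.9 for Zfp709, and 13.9 and 12.3 for Zfp935. The strongest Zfp458 and Zfp709 peaks were themselves shared. At the Dgke intron Zfp458 had 53.4-fold, while Gm13251, assayed in another setup, had 35.6-fold, Zfp935 had 17.0-fold with 39 tags and Zfp457 had 11.3-fold. The strongest Zfp709 peak lay 4382 bp from the start of Sox13, a SOX family transcription factor gene, with 32.7-fold enrichment and 63 tags (chr1:135277621-135277820), and was also called in Zfp595. Its window is made of words that occur a median of 21 times in mm9.

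**Figure D5:**
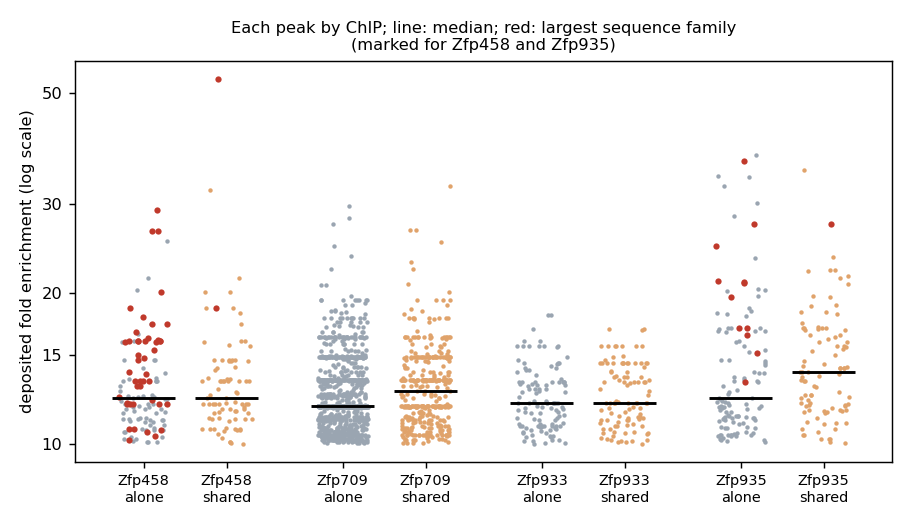
Deposited fold enrichment (y axis, log scale) of every peak of the 4 ChIPs, split into loci called in that KRAB-ZFP alone and shared loci (x axis). Each point is a peak, bars are medians, and red points mark the largest sequence family of Zfp458 and of Zfp935. The Zfp458 family fills much of the upper range of the loci called alone, the Zfp933 points end at 18.1, and the Zfp935 family has a median of 20.9.

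Zfp709 had the third longest list of the setup, made of many weak peaks. Its fold ran from 10.0 to 32.7, with 617 of 1223 peaks under 12-fold (50.4%) and 16 at 20-fold or more (1.31%). The tags ran from 10 to 270 with a median of 23, the lowest median of the 4, and the median called width of 221 bp took place 28 of 30 in the setup. The deposited false discovery rate had a median of 2.89% and was above 10% in 36 peaks. The highest fold among loci called for Zfp709 alone was 29.8 with 137 tags, in an intergenic region 28322 bp from the start of Sall1 (chr8:91539639-91539838), a zinc finger transcription factor gene. It was followed by a locus 15855 bp from the mucin gene Muc6 (28.2-fold, 66 tags) and a Cand2 intron (27.4-fold, 51 tags). Next came the first bases of the transcript AL607123.1 (24.7-fold, 38 tags, 21 bp from its start) and an intron of Gm20388 (23.7-fold, 119 tags). The last was a locus 66944 bp from the start of Gm10330 (22.3-fold, 46 tags). The loci near Sall1, in Cand2 and in Gm20388 lay in single-copy sequence, and the Gm10330 window had a median of 10 copies.

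The families of Zfp709 were smaller in proportion. Of its 1223 peaks 128 (10.5%, interval 8.87% to 12.3%) fell into 18 families. The largest had 50 peaks, but 33 of them held a purine or pyrimidine run and only 26 were called for Zfp709 alone, with a median fold of 13.2. The next had 19 peaks, 8 of them with a run of alternating TG or CA of at least 30 bp, and the third had 16. With alignments of 60 bp in place of 100 bp the largest family grew to 237 peaks. Genomic copies were not searched for these families. The fourth family, of 8 peaks with 7 called alone, was made of words present a median of 83.5 times in mm9, and its fold ran from 10.3 to 18.2.

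Zfp933 had the weakest ChIP by its highest peak. The fold ran from 10 to 18.1 with a median of 12.1, no peak reached 20-fold (0 of 216, interval up to 1.75%), and the tags ran from 12 to 57 with a median of 30. The deposited false discovery rate had a median of 13.8% and was above 5% in all 216 peaks. At the 6 loci of highest fold called for Zfp933 alone it was 13.1% to 50.9%. The 6 highest loci called for Zfp933 alone ran from 15.7-fold to 18.1-fold with 22 to 43 tags. They lay near Gm4994 (chrX:128418738-128418937), in the untranslated region of Eapp, in a Rgsl1 intron and near Klhl5. The remaining ones lay far from any start, 107669 bp from a U6 and 114078 bp from a 7SK small RNA gene. Only 7 peaks fell into families (3.24%, interval 1.58% to 6.54%), and all 5 peaks of the larger one held a purine or pyrimidine run.

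Zfp935 was called with the stricter p threshold and had the highest median of tags, 43, with a minimum of 31. The fold ran from 10.0 to 37.7 with a median of 13.3, and 25 of 215 peaks (11.6%, interval 8.0% to 16.6%) reached 20-fold, the largest share of the 4. The deposited false discovery rate had a median of 2.89% and was above 10% in 44 peaks. At the 6 loci of highest fold called for Zfp935 alone it was 45.5% to 100%, so these were not the peaks with the lowest rate. The highest locus called for Zfp935 alone lay in an intron of 9330179D12Rik and 3850 bp from the start of Ccnd2, the cyclin D2 gene (chr6:127104816-127105015, 37.7-fold, 149 tags). Next came a locus far from genes on chromosome 10 (chr10:67876377-67876576, 36.6-fold, 93 tags) and the untranslated region of the glutamate transporter gene Slc1a2 (34.3-fold, 100 tags). A locus 65 bp from the start of the potassium channel gene Kcnk6 had 34.0-fold enrichment and 92 tags (chr7:30017506-30017705). A locus near a 5S_rRNA gene had 32.7-fold (92 tags), and one 139 bp from the start of Fbxl15 had 30.2-fold with 144 tags (chr19:46402435-46402634).

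Of the 215 Zfp935 peaks 29 (13.5%, interval 9.56% to 18.7%) fell into 6 families, and the chromosome 10 locus was the strongest of the largest one. This family joined 13 peaks, 12 of them called for Zfp935 alone, with a fold of 13.3 to 36.6 and a median of 20.9, against a median of 12 in the 109 other peaks called alone. Of the 20 peaks with the highest fold called for Zfp935 alone 7 were in it, and of the other 101, 5. By score, a measure of the p-value that grows with tags, only 3 of the top 20 were. Part of its consensus is given around the median summit, positions 136 to 255 of 395 bp, to show that it is another sequence than that of Zfp458.
Consensus of the Zfp935 family: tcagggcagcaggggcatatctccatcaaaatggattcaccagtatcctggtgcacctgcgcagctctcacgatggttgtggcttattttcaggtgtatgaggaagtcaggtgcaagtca

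The summits of the 13 peaks lay between positions 118 and 272 of this consensus with a median of 195. It had 4070 copies in mm9, of which 13 carried a Zfp935 peak (0.319%, interval 0.187% to 0.546%) and 42 a peak of another KRAB-ZFP, led by Gm13251 with 15 and Gm14326 with 11. Copies with a peak were closer to the consensus (90.6%) than the others (88.2%). The 13 peaks on these copies were also those that made the consensus, so this difference follows in part from how it was made. The words of the family peaks occurred a median of 7 times in mm9, so reads of these copies may have been placed at another copy. The highest value was 478 times, at a locus 126656 bp from the start of Snora33 (21.1-fold, 64 tags). A 30 bp stretch chosen as for Zfp458 did not recur here: on the copies left aside the match was 67.2% with a peak against 67.3% without for the first stretch, and 85.6% against 86.5% for the second, with 6 copies with a peak each.

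Short words were counted without use of the families. For each ChIP the 8-base word most in excess in 100 bp around the summits of single-copy loci called alone was chosen on odd-numbered chromosomes, on both strands. It was then counted in all peaks on the even-numbered chromosomes and X, shared and multi-copy ones included. AAGGGCTG was found in 4 of 101 Zfp458 peaks (3.96%, interval 1.55% to 9.74%) and in 0.501% of 5988 peaks of the other KRAB-ZFPs of the setup. The 10-base word ACAGCCTTAA was found in 8 of 101 (7.92%, interval 4.07% to 14.9%) against 0.0167%, and in windows of 200 bp CAGCCTTA was found in 18 of 101 (17.8%, interval 11.6% to 26.4%) against 0.768%. All 3 words, each chosen on odd-numbered chromosomes, lie in the printed consensus of the Zfp458 family, across the end of its capitals or just after them. With the sets of chromosomes exchanged the leading 8-base word was another one, TTGAGAAA. It was found in 5 of 102 Zfp458 peaks (4.90%) against 0.539%. That word is not in the printed consensus on either strand, and whether it lies elsewhere in the family was not tested. Chosen on odd-numbered chromosomes with the peaks of sequence families left out, the leading word, CACCATAC, was found in 0 of 65. The word of Zfp709, AAGCTAAG, was found in 1 of 563 peaks (0.178%) against 0.290%, that of Zfp933, AGAAGCAG, in 1 of 90 (1.11%) against 1.08%, and that of Zfp935, GCAATGAA, in 0 of 120 against 0.385%. The counting intervals of these 3 words all held the share of the other peaks, which says only that no single word of this length carried over.

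Few summits lay at gene starts. For Zfp458, 8 of 203 summits were 1 kb or less from the start of a transcript (3.94%, interval 2.01% to 7.58%). The share was 4.99% for Zfp709 (interval 3.90% to 6.35%), 6.94% for Zfp933 (interval 4.25% to 11.1%) and 8.84% for Zfp935 (interval 5.73% to 13.4%). These regions make up 4.15% of mm9, and 11.2% of all 53011 labelled peaks lay in them. Only the Zfp933 and Zfp935 intervals lay above the genomic share. Genes held 46.3% of Zfp458 summits (interval 39.6% to 53.2%), 51.5% of Zfp709 (interval 48.7% to 54.3%), 56.5% of Zfp933 (interval 49.8% to 62.9%) and 51.2% of Zfp935 (interval 44.5% to 57.8%). Genes make up 41.2% of mm9 and held 45.4% of the peaks of the 26 other KRAB-ZFPs of the setup. Windows whose 24 bp words occurred a median of 2 or more times in mm9 made up 13.3% of Zfp458, 9.89% of Zfp709, 9.26% of Zfp933 and 15.3% of Zfp935 peaks. The share was 41.7% over all labelled peaks and 19% over the peaks of the 26 other KRAB-ZFPs of the setup. The intervals of Zfp458 (9.30% to 18.7%), Zfp709 (8.34% to 11.7%) and Zfp933 (6.07% to 13.9%) lay below that 19%. The interval of Zfp935 (11.1% to 20.8%) held it. The median KRAB-ZFP among the 30 of the setup had 13.8%, and only the Zfp709 interval lay wholly below this.

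Zinc finger genes were taken by symbol, as those starting with Zfp, Zscan, Zkscan, Zbtb, Znf or Zik. Zinc finger genes under other names, such as Gm names, were therefore not counted. They held 6 Zfp458 summits (2.96%, interval 1.36% to 6.30%), against 0.721% of all labelled peaks. This was the largest share among the 30 KRAB-ZFPs of the setup, closely followed by Zfp872 with 2.66%. Besides Zfp599 the sites were a Zfp462 intron (14.7-fold), a Zfp385b intron (13.4-fold), the untranslated regions of Zfp187 (12.3-fold) and Zfp691 (11.5-fold), and an intron site on chromosome 18. All 6 summits thus lay in introns or untranslated regions and none in a coding exon. Zfp709 had 13 such summits (1.06%), all in introns, with the highest in Zfp605 at 20.7-fold. Zfp933 and Zfp935 had 1 each, in Zfp385b (11.6-fold) and Zfp106 (13.8-fold). The same place in the Zfp462 intron was called for Zfp458 and Zfp709 and in 2 other KRAB-ZFPs, while the Zfp385b peaks of Zfp458 and Zfp933 lay at different places of that gene.

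None of the 4 had a peak within 10 kb of its own gene. The nearest own summit lay 802983 bp from Zfp458 (chr13:67355854-67370004), 257324 bp from Zfp709 (chr8:74411163-74414811), 2653957 bp from Zfp933 (chr4:147197095-147222475) and 360462 bp from Zfp935 (chr13:62555683-62568128). Peaks of 2 other KRAB-ZFPs, Gm14419 and Gm8898, lay inside the Zfp933 gene. The genes of the KAP1 silencing pathway were taken as Trim28 and Trim33, Setdb1 with its partner Atf7ip, the HP1 genes Cbx1, Cbx3 and Cbx5, the DNA methylation genes Dnmt1, Dnmt3a, Dnmt3b and Uhrf1, and Morc3, Resf1 and Smarcad1. Of these 14 genes, 1 had a summit in or within 10 kb of it, Dnmt3b with a Zfp709 peak of 11.1-fold that was called for Zfp709 alone. Dnmt3b encodes a de novo DNA methyltransferase. For Zfp458, Zfp933 and Zfp935 the count was 0 of 14. Of all 22238 protein-coding genes, 0.634% had such a summit of Zfp458, 4.02% of Zfp709, 0.805% of Zfp933 and 0.809% of Zfp935, so 14 genes are too few to set the list apart from other genes.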

How the data were processed

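The 4 ChIP-seq samples, the 26 others of the same setup and all 67 labelled KRAB-ZFPs with peaks were read from the deposited table of peaks; groups came from the labels, with 1 sample for each KRAB-ZFP. The table held 53255 rows under 68 names. The 244 rows of a name that matched no label, and 1 labelled KRAB-ZFP without rows, were not used. Per the labels, the authors aligned reads to mm9 with Bowtie and called peaks with MACS 1.4.2 in each sample, without pooling. Per the study's methods, a read with several equally good positions was placed at 1 of them pseudo-randomly, which spreads reads over copies of a repeat, and only peaks over both input and control were kept. The authors deposited for each peak a count of tags, a score of 10 times the negative log10 of the p-value, a fold (ratio) over the local background and a false discovery rate in percent. The depth of the libraries is unknown. The tags inside peaks summed to 8555, 30669, 6870 and 11367 for Zfp458, Zfp709, Zfp933 and Zfp935, so a locus without a peak is not shown to be unbound.

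Positions were compared with gencode genes on NCBIM37 (mm9), counted from 1. Shares carry 95% Wilson intervals. Sequence families were single-linkage groups of 200 bp windows aligned with blastn 2.17.0 and joined with networkx 3.6.1. Consensus sequences were made with MAFFT 7.526, and copies were blastn hits of at least 100 bp, joined over gaps of up to 50 bp. No repeat annotation was used. Scripts ran in Python 3.11.15 with numpy 2.4.6, pandas 2.3.3, scipy 1.17.1, numba 0.67.0 and matplotlib 3.10.9, and were tested on simulated data. Named loci were the 6 of highest fold called alone and the 3 called in most KRAB-ZFPs for each ChIP, the highest peak, the own genes and the leading words. The members and lists were chosen with earlier results of these data known. The copies of the families, the 30 bp stretch, the purine runs and 2 of the alternatives were chosen after the peaks had been seen, as were the family and shared loci named beyond this rule. The sequences of the loci called in most KRAB-ZFPs are not reported here.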

Additional observations from a re-analysis of the deposited data

How the results depend on the processing

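Over 36 results and 123 alternatives, 79 values stayed close to the reported one and 44 moved. Overlap rules for shared loci were among those that moved none. The settings of peak calling moved most. With p under 1e-10 and enrichment over 10, Zfp458, Zfp709 and Zfp933 kept 101, 797 and 80 peaks, of which 62, 559 and 43 were called alone and 38, 209 and 32 shared within the setup. With enrichment over 20, 10, 16 and 0 peaks were left, and 25 for Zfp935. Within 5 kb of a start lay 24.6%, 24.4%, 25.9% and 32.1% of the summits, in the order Zfp458, Zfp709, Zfp933 and Zfp935, and with protein-coding genes only 3.76% of Zfp709. Windows with at least 10 copies were 4.93%, 4.66%, 2.31% and 6.51%, and with 100 bp windows 22.7% of Zfp458 peaks were multi-copy. At 85% identity 36, 51, 0 and 16 peaks were in families, against 63, 128, 7 and 29 at 75%. Alignments of 60 bp gave 298 for Zfp709 and 23 for Zfp933, loci called alone gave 74, 2 and 17 for Zfp709, Zfp933 and Zfp935, and a low-complexity filter, added after seeing the data, gave 80 and 2 for Zfp709 and Zfp933. The leading word was in 17.8% of Zfp458 peaks with 200 bp and in 0 with family peaks left out, which was also added later. For Zfp709 it was in 1.42% with 7 bases and 0 with 10. For Zfp933 it was in 0 with 10 bases, with the sets of chromosomes exchanged and with 200 bp. Within 25 bp of the summit lay 0 of 1 match of the Zfp933 word, and 100% within 50 bp. Counting loci called alone, 0 Zfp933 and 0 Zfp935 peaks lay in zinc finger genes. The cause of these changes was not tested. No paired analysis was possible because each KRAB-ZFP had 1 sample. A word or peak that is missing may be due to depth, which is unknown.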
